A study of Mus musculus with 2 samples.

Results

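The 10 genes described here encode the core protein, the scaffold and the assembly factors of elastic fibers and microfibrils. They are Eln (elastin), Fbn1 (fibrillin-1), Fbln1, Fbln2 and Fbln5 (fibulins), Ltbp1 and Ltbp3 (latent TGF-β binding proteins), Mfap5 (a microfibril-associated glycoprotein), Emilin1 and Lox (lysyl oxidase). They were chosen by gene symbol as members of this system, with earlier results of these data known. All 10 were found among the 26082 genes of each file. RNA-seq was performed on primary mouse fibro-adipogenic progenitors (FAPs), the mesenchymal cells of skeletal muscle that can form adipocytes and fibroblast-like cells, with 1 library per group. The cells, of WT genotype, had been transfected with TGFBR3 overexpressing plasmids (the library labeled TGFBR3 OE) or with vector (the library labeled control). TGFBR3, or betaglycan, is a co-receptor of TGF-β. Both groups shared the adipogenic induction, in DMEM with 20% FBS, 10 μg/ml insulin, 0.25 μM dexamethasone and 0.5 mM IBMX. The paper describes sorting of the FAPs from hind limb muscles, and its mice were C57BL/6, bought as young adults. The number of animals or cultures behind a library, the age at which the cells were taken and the species of the TGFBR3 insert are not given in the sources used here. The comparison asks how the transcripts of the elastic fiber system differed between these 2 libraries.

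Elastic fibers give tissues their recoil. They consist of cross-linked elastin laid down on microfibrils, which are bundles of fibrillin with associated glycoproteins. Fibulins and EMILIN-1 link elastin to the microfibril, lysyl oxidases form the cross-links, and latent TGF-β binding proteins (LTBPs) anchor stored TGF-β to fibrillin. In skeletal muscle, FAPs are a main source of interstitial matrix.

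With 1 library per group, no difference below has a replicate check and no test was possible. The files give for each gene a count and an FPKM value, which is the count scaled by gene length and by a library total. Unless said otherwise, a difference is the log2 ratio of (FPKM + 1), the library labeled TGFBR3 OE over the library labeled control, so that a negative value means lower in the former. A gene was called when it differed at least 2-fold, which is a log2 ratio of 1 or −1. The 95% confidence intervals are exact Clopper-Pearson intervals on the split of a gene's counts between the libraries, set against the library totals that the FPKM values imply. They cover counting error only and are far narrower than the spread between cultures could be.

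The counts summed to 62321027 in the library labeled TGFBR3 OE and to 83779203 in the library labeled control. Tgfbr3 itself had FPKM values of 36.9 and 35.1, from 16372 and 21245 counts, a log2 ratio of 0.07 (95% CI 0.04 to 0.10). It was thus not raised beyond the median gene, which stood at 0.14 among the 11213 genes whose FPKM averaged 1 or more over the 2 libraries (expressed genes in the following), and every direction below is that of the labels. FAP markers were present in both libraries, with FPKM values of 30.5 and 32.6 for Pdgfra and of 1013 and 706 for Ly6a, and 3 of 6 FAP markers were lower in the library labeled TGFBR3 OE. The 8 macrophage markers summed to an FPKM of 0.78 and 0.49, with Adgre1, Tyrobp and Fcer1g at 0 counts in both. The 6 endothelial markers summed to 2.17 and 2.03, with Tie1 at 0 and Kdr at 0.43 and 0.08 from 262 and 65 counts, and the 3 muscle markers analysed here (Myog, Des and Ckm) to 1.16 and 0.81.

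Promoters are shown for Fbn1, the lowest gene on the (FPKM + 1) scale, and for the 2 genes that were higher in the library labeled TGFBR3 OE. This sets their sequences beside opposite differences. RefSeq windows from 250 bases before to 50 bases after a start site were analysed for 7 of the 10 genes. These were 10 windows in all (build GRCm38.p6, the assembly called mm10). No window of Eln, Mfap5 or Lox was analysed here, so the motif counts do not cover these genes. Capitals mark the matches, on either strand, to the motifs that are spelled out after the sequences. Fbn1, chr2:125506389-125506688 on the minus strand, has 1 window. Fbln5 has an upstream window, chr12:101819070-101819369, and a downstream window, chr12:101818435-101818734, both on the minus strand. Ltbp1 has an upstream window, chr17:75005279-75005578, and a downstream window, chr17:75178531-75178830, both on the plus strand.
Fbn1: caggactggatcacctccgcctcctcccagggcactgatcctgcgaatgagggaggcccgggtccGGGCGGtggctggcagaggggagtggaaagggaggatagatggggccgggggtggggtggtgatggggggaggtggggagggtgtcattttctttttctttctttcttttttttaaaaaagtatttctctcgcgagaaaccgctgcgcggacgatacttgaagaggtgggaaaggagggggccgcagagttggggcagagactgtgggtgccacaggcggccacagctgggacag
Fbln5 upstream: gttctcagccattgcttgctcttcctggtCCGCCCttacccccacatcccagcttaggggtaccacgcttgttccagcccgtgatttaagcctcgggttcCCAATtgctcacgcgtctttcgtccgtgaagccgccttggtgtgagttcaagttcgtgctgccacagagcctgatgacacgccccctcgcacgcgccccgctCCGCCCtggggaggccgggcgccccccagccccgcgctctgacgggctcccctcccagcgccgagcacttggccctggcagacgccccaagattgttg
Fbln5 downstream: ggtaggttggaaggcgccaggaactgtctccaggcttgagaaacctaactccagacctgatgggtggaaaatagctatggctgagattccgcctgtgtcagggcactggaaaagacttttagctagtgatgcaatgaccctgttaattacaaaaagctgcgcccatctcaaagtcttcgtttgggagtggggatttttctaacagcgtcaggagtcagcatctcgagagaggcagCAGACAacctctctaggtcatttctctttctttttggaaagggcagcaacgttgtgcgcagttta
Ltbp1 upstream: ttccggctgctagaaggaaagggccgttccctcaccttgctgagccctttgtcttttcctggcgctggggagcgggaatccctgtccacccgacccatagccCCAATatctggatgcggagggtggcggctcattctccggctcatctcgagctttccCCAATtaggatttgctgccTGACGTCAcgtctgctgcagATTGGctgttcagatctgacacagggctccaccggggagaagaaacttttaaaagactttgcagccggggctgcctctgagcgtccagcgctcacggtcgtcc
Ltbp1 downstream: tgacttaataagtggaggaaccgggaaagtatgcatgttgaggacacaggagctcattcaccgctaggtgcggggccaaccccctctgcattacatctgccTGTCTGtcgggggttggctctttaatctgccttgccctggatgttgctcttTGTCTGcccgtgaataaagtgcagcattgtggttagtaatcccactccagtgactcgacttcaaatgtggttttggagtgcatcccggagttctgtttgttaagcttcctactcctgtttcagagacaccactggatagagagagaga

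The GC box (GGGCGG) was found in 4 of the 10 windows and in 35.7% of 32851 windows of all genes. The printed Fbn1 window and the upstream Fbln5 window hold it, so it stood in front of a gene that was lower and a gene that was higher. The CCAAT box (CCAAT) was found in 3 of the 10 windows against 37.4% of all windows, with 3 matches in the upstream Ltbp1 window alone. The cAMP response element (TGACGTCA) was found only in the upstream Ltbp1 window among the 10, and in 1.79% of all windows. CAGACA, which contains the short SMAD-binding sequence, was found in 6 of the 10 windows, including the downstream windows of Fbln5 and Ltbp1, and in 21.04% of all windows. The 2 Fbln1 windows overlap, and the match counted in each of them is the same site. The AP-1 motif (TGANTCA) was found in 1 window, that of Ltbp3, where it shares letters with a CAGACA match, and in 7.81% of all windows. The palindromic SMAD motif (GTCTAGAC), the TEAD motif (GGAATG) and the TATA box (TATAAA) were found in 0 of the 10 windows and in 0.21%, 14.7% and 13.6% of all windows, respectively. A match is a description of letters, not a binding site, and the gene counts do not tell which start site was used. The motifs were chosen after the values were seen.

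Per length, levels of the 10 genes ran from an FPKM of 0.04 to one of 1140.25, and the cross-linking enzyme and a fibulin were among the most abundant transcripts of these cells while elastin was nearly absent. Lox, which oxidizes lysines of elastin and collagen for cross-linking, was the highest, with an FPKM of 869 in the library labeled TGFBR3 OE and of 1140.25 in the library labeled control, at rank 27 and rank 19 of the 26082 genes. Fbln2, a fibulin that binds elastin, fibrillin-1 and basement membrane proteins, followed with FPKM values of 578 and 825, at ranks 58 and 39. Together these 2 genes held 84.0% and 83.0% of the summed FPKM of the 10. Elastin, the core protein, was the lowest, with FPKM values of 0.04 and 0.17 from 21 and 127 counts. The other 7 genes lay between 2.82 and 128. In the library labeled control, the order of FPKM was Lox, Fbln2, Fbn1, Mfap5, Emilin1, Ltbp3, Fbln5, Fbln1, Ltbp1 and Eln. In the library labeled TGFBR3 OE, Mfap5 stood above Fbn1 and Fbln5 above Emilin1 and Ltbp3, although Fbln5 (50.39) and Emilin1 (50.38) were equal within counting error. The 10 genes made up 1.06% of all gene counts in the library labeled TGFBR3 OE and 1.51% in the library labeled control.

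**Figure D1:**
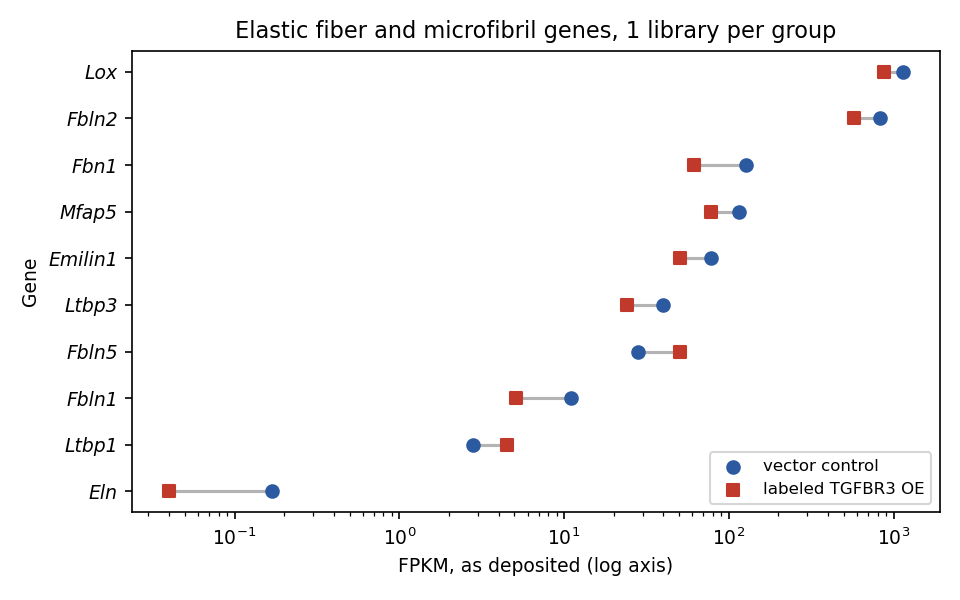
FPKM of the 10 genes (log axis) in the library labeled TGFBR3 OE (squares) and in the library labeled control (circles), 1 library per group, with a line joining the 2 values of a gene. The square lies left of the circle for 8 genes and right of it for Fbln5 and Ltbp1, and Eln lies apart from the rest at 0.04 and 0.17.

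Of the 10 genes, 8 were lower and 2 were higher in the library labeled TGFBR3 OE. Among the expressed genes, 36.7% were lower. Each counting interval of the 10 lay on 1 side of 0, but at this depth that does not set them apart. Among the 11 expressed proteases and inhibitors described further on, only 1 interval included 0. The share over all genes was not determined. At the 2-fold threshold, Fbn1 was called lower and none was called higher, against 0.58% of 21364 genes above the floor of 3 counts called lower and 1.73% called higher. Over the expressed genes, those shares were 1.03% and 3.14%. At 1.5-fold, 4 genes were lower (Fbn1, Fbln1, Ltbp3 and Emilin1) and 1 was higher (Fbln5), against 4.91% and 13.3% of the expressed genes. The median log2 ratio of the 10 genes was −0.53, beside 0.14 over the expressed genes, and 9 of the 10 genes pass that minimum. The summed FPKM of the 10 was 1721 in the library labeled TGFBR3 OE and 2367 in the library labeled control, a log2 ratio of −0.46. Without Lox and Fbln2 the sums were 275 and 402, a log2 ratio of −0.55. In bulk RNA, fewer cells that express a gene and less of its RNA per cell cannot be told apart.

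**Figure D2:**
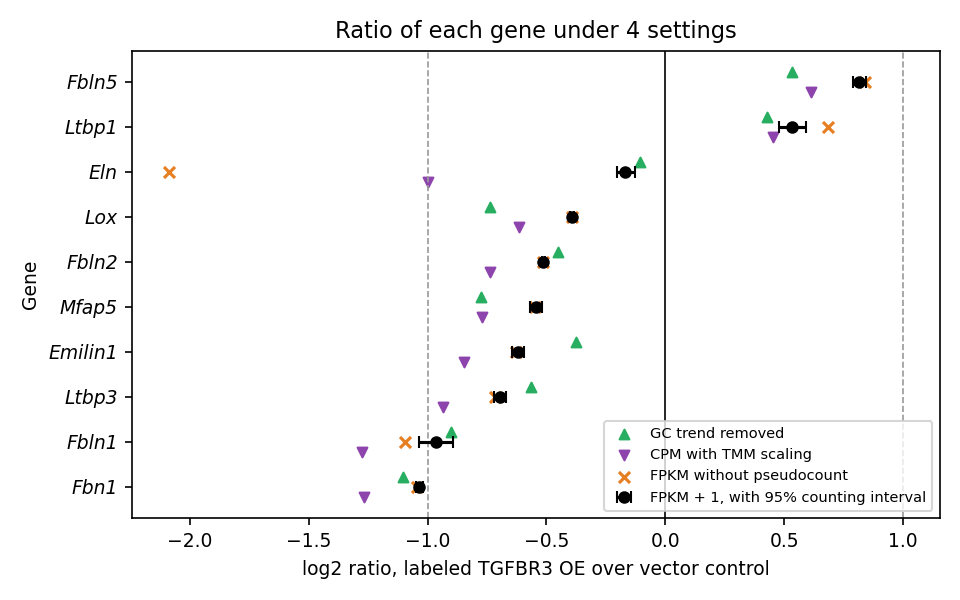
The log2 ratio of each gene, the library labeled TGFBR3 OE over the library labeled control, from (FPKM + 1) with its 95% counting interval (black), and under 3 other settings. Dashed lines mark 2-fold. Fbn1 lies past the line under all 4 settings, Fbln5 and Ltbp1 lie right of 0 under all 4, and Eln moves from −0.17 to −2.09 when no pseudocount is added.

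Elastin RNA was scarce in both libraries. Eln (ENSMUSG00000029675, mm10 chromosome 5, 134702593 to 134747323, minus strand) had 21 counts in the library labeled TGFBR3 OE, which is 0.337 CPM (counts scaled to the library's sum, 95% CI 0.209 to 0.515). The 127 counts in the library labeled control were 1.52 CPM (95% CI 1.26 to 1.80). Set against the library totals that the FPKM values imply, rather than the sums of the counts, it was 4.44-fold lower in the library labeled TGFBR3 OE (95% CI 2.78 to 7.42). On the (FPKM + 1) scale the log2 ratio was −0.17 (95% CI −0.20 to −0.13), because the added 1 outweighs such low values. By the plain FPKM ratio, 3 of the 10 genes were at least 2-fold lower (Eln, Fbn1 and Fbln1), against 5.56% of the 18544 genes with an FPKM above 0 in both libraries.

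Fibrillin-1, the backbone of the microfibril, was the most reduced of the 10 on the main scale. Fbn1 (ENSMUSG00000027204, chromosome 2, 125300594 to 125507993, minus strand) had FPKM values of 61.8 and 128 from 50812 and 142886 counts. The difference was −1.03 on the log2 scale (95% CI −1.05 to −1.02), so that the interval lay wholly past 2-fold, and a lower ratio was found for 102 of the 11213 expressed genes. Exons of the antisense gene Gm9913, which had 103 and 193 counts of its own, overlap 20.1% of the Fbn1 exon bases. The paper names a stranded library kit. Since it is not stated if counting used strand, reads of the 2 genes in that overlap cannot be told apart in these counts. Fbn2, the fibrillin of developing tissues, was at FPKM 0.09 and 0.12, and thus Fbn1 held 99.9% of the fibrillin FPKM in each library.

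Mfap5 and Emilin1, which decorate the microfibril, were also lower. Mfap5 (ENSMUSG00000030116, chromosome 6, 122505845 to 122529290, plus strand) encodes MAGP-2, a small glycoprotein bound to fibrillin. Its FPKM was 78.3 in the library labeled TGFBR3 OE and 115 in the library labeled control, a log2 ratio of −0.54 (95% CI −0.57 to −0.52). Emilin1 (ENSMUSG00000029163, chromosome 5, 30913402 to 30921277, plus strand) encodes a glycoprotein at the interface of elastin and microfibril that restrains the maturation of TGF-β. Its FPKM was 50.4 and 77.9, a log2 ratio of −0.62 (95% CI −0.65 to −0.59). Other genes with like names, picked out after their values were seen, did not all have ratios of the same sign. Mfap2, which encodes MAGP-1, was at −0.72 (95% CI −0.88 to −0.56) from FPKM 3.65 and 6.66, and Mfap4 was at −0.72 (95% CI −0.87 to −0.55) from 1.04 and 2.35. Mfap3 was higher at 0.44 (95% CI 0.37 to 0.51) from 6.18 and 4.30. Emilin2 stood at −0.60 (95% CI −0.63 to −0.56), close to Emilin1, so that Emilin1 held 63.5% and 63.8% of the FPKM of the pair.

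The 3 fibulins diverged. Fbln1 (ENSMUSG00000006369, chromosome 15, 85205949 to 85286535, plus strand), which binds fibronectin and other matrix proteins, had FPKM values of 5.12 and 10.9 from 1520 and 4415 counts. Its log2 ratio of −0.96 (95% CI −1.04 to −0.89) was just short of 2-fold on the (FPKM + 1) scale, and its interval spans the threshold. By counts set against the implied library totals, without the added 1, Fbln1 was 2.13-fold lower (95% CI 2.01 to 2.26). Fbn1 was 2.07-fold lower (95% CI 2.04 to 2.09) by that measure. Fbln2 (ENSMUSG00000064080, chromosome 6, 91212455 to 91272540, plus strand) was at −0.51 (95% CI −0.52 to −0.51). Fbln5 (ENSMUSG00000021186, chromosome 12, 101746565 to 101819055, minus strand), which brings elastin and lysyl oxidase-like enzymes together on the microfibril, went the other way. Its FPKM was 50.4 in the library labeled TGFBR3 OE and 28.2 in the library labeled control, from 23626 and 17998 counts. The difference was 0.82 on the log2 scale (95% CI 0.79 to 0.84), exceeded by 598 of the 11213 expressed genes. Of the 7 fibulins compared it alone had a positive ratio, since Efemp1 (fibulin-3), Efemp2 (fibulin-4, which is needed for elastin cross-linking), Fbln7 and Hmcn1 stood at −0.17, −0.51, −0.26 and −0.06. Hmcn2, a further relative that was not among the 7 and was added after its values were seen, was also higher, at 0.26 (95% CI 0.21 to 0.31) from FPKM 0.70 and 0.42. Fbln5 remained a small part of the fibulin FPKM, with 3.15% in the library labeled TGFBR3 OE and 1.40% in the other, next to 36.1% and 40.9% for Fbln2 and 47.3% and 42.3% for Efemp1.

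The LTBPs, which hold latent TGF-β in the matrix, diverged in the same manner. Ltbp1 (ENSMUSG00000001870, chromosome 17, 75005568 to 75392512, plus strand) had FPKM values of 4.53 in the library labeled TGFBR3 OE and 2.82 in the library labeled control, from 3285 and 2784 counts. This gave a difference of 0.53 on the log2 scale (95% CI 0.48 to 0.59). Ltbp3 (ENSMUSG00000024940, chromosome 19, 5740904 to 5758532, plus strand) was lower, at FPKM 24.2 against 39.8, with a log2 ratio of −0.69 (95% CI −0.72 to −0.67). Ltbp2, an LTBP that does not bind latent TGF-β, was the most abundant of the family, at FPKM 87.5 and 151, with a log2 ratio of −0.78 (95% CI −0.80 to −0.77). Ltbp4 was scarce, at 1.82 and 2.72, with a log2 ratio of −0.40. The 4 genes summed to an FPKM of 118 and 197, of which Ltbp1 held 3.84% and 1.43%. Of the ligands that LTBPs hold, Tgfb1 was lower, at a log2 ratio of −0.26 (95% CI −0.33 to −0.20), Tgfb3 stood at 0.07 (95% CI 0.00 to 0.13), and Tgfb2 was scarce, at FPKM 0.86 and 0.58.

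Lox, the enzyme of cross-linking, was lower too. Lox (ENSMUSG00000024529, chromosome 18, 52516067 to 52529867, minus strand) had 281549 and 503365 counts, with a log2 ratio of −0.39 (95% CI −0.40 to −0.39). This lay nearer to 0 than the values of Fbn1, Mfap5 and Emilin1, but after correction for GC content, described further on, Lox stood at −0.74, beyond Emilin1 at −0.37. It held 65.7% and 68.4% of the FPKM of the 5 lysyl oxidases. Loxl1, the enzyme most tied to elastin, and Loxl2 were at −0.29 and −0.32, and Loxl3 was at −0.04 (95% CI −0.06 to −0.02). Loxl4, the scarcest of the 5, was higher, with a log2 ratio of 0.36 (95% CI 0.30 to 0.43) from FPKM 10.6 and 7.99.

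**Figure D3:**
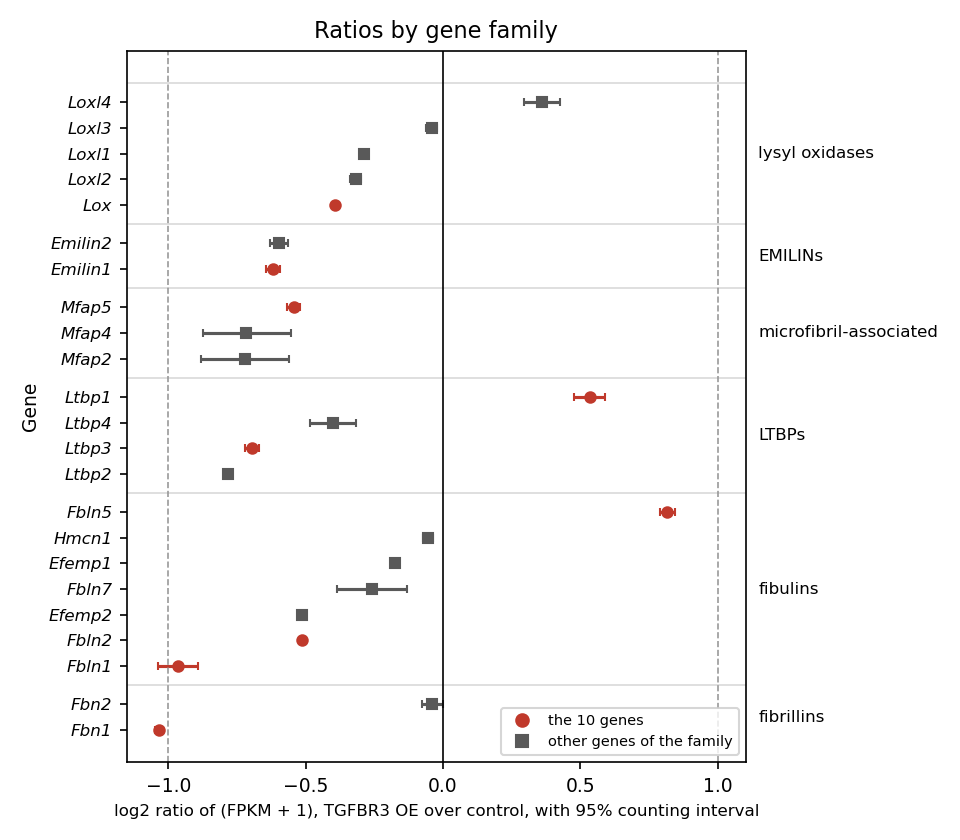
The log2 ratio of (FPKM + 1), the library labeled TGFBR3 OE over the library labeled control, with its 95% counting interval. The genes form 6 groups by family or by name, the 10 genes as circles and the others as squares. Fbln5, Ltbp1 and Loxl4 lie right of 0 in their groups at 0.82, 0.53 and 0.36, and the other genes shown lie left of it. Mfap3 at 0.44 and Hmcn2 at 0.26, which were also higher, are not shown.

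Ratios between genes of the same library do not depend on how the libraries were scaled, and they showed that the differences were unequal. They still hold the trend over GC content that is described further on. Fbln5 amounted to 0.816 of the FPKM of Fbn1 in the library labeled TGFBR3 OE and to 0.221 in the library labeled control, a 3.69-fold change of the count ratio (95% Wald CI 3.61 to 3.77, counting error only). The count ratio of Fbln5 to Fbln1 was 3.81-fold higher (95% CI 3.59 to 4.05) and that of Ltbp1 to Ltbp3 was 2.64-fold higher (95% CI 2.503 to 2.79). In contrast, Lox against Fbln2 differed by 1.09-fold (95% CI 1.08 to 1.10) and Emilin1 against Ltbp3 by 1.06-fold (95% CI 1.04 to 1.09). Mfap5 against Fbn1, a partner pair of the microfibril, was 1.41-fold higher (95% CI 1.38 to 1.44). With the GC trend removed, Lox stood at −0.74 and Fbln2 at −0.45, so that the order of this pair reversed. The other pairs given here kept their order. These 9 pairs of genes, of which 6 are given here, were chosen after the values were seen.

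**Figure D4:**
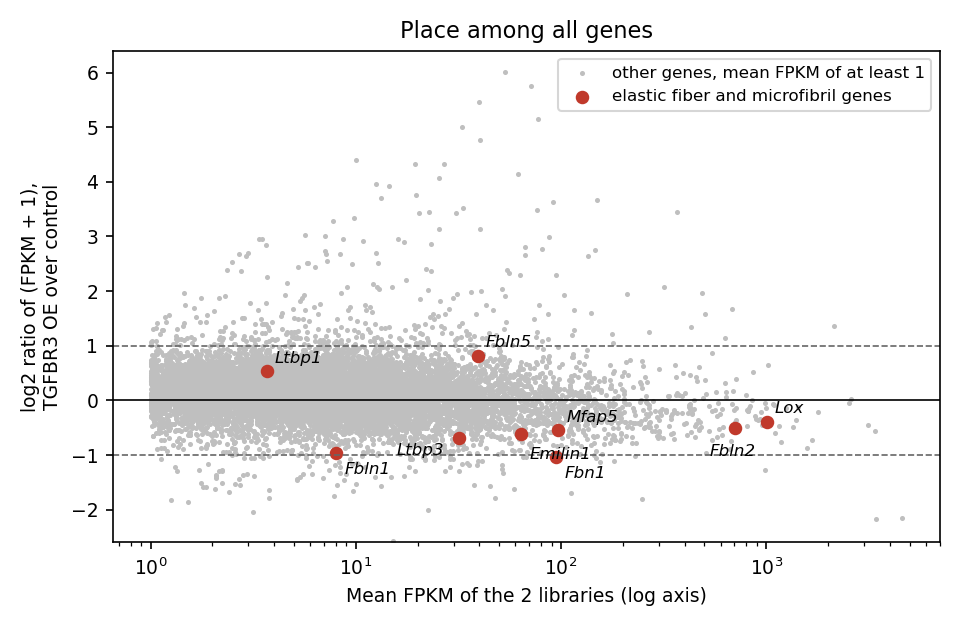
The log2 ratio of (FPKM + 1) against the mean FPKM of the 2 libraries (log axis) for the 11213 expressed genes, with 9 of the 10 genes in red and Eln, which falls under that mean, left out. Dashed lines mark 2-fold. Fbn1 at −1.03 and Fbln1 at −0.96 lie at the lower edge of the cloud and Fbln5 at 0.82 near the upper edge of its bulk.

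A list of 31 other genes of the elastic fiber and microfibril system was compiled from general knowledge, with earlier results of these data known. Of these genes, 30 were above the floor of 3 counts and Adamts17 had 0 counts. Among the 22 that were expressed, 18 were lower and 4 were higher in the library labeled TGFBR3 OE, and their median log2 ratio was −0.39. Over all expressed genes, 36.7% were lower. None of the 22 reached 2-fold, and at 1.5-fold 5 were lower and 1 was higher, against 4.91% and 13.3% of the expressed genes. The lowest were Ltbp2 (−0.78), Mfap2 (−0.72) and Mfap4 (−0.72). The highest were Adamts6, a metalloprotease of the fibrillin-binding group, at 0.85 (95% CI 0.78 to 0.92), Mfap3 at 0.44 and Loxl4 at 0.36. Over all 30 genes above the floor the median was −0.27. For the proteases of elastin and microfibrils and their inhibitors, 11 genes were expressed, with a median of −0.09, and none of the 11 reached 1.5-fold. Mmp2 (−0.36), Mmp3 (−0.34) and the inhibitor Timp2 (−0.34) were the lowest, and Ctsb (0.29), Adamts5 (0.11) and Timp3 (0.11) the highest. Mmp12, the macrophage elastase, was at FPKM 0.06 and 0.05, and Mmp7 was not analysed here. Of 10 integrin subunits that bind fibrillin, fibulin-5 or latent TGF-β, 6 were expressed, 3 of them lower and 3 higher, from −0.51 for Itga9 and Itgb3 and −0.25 for Itgb5 to 0.04 for Itga5, 0.13 for Itgav and 0.34 for Itgb1.

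Exon GC content moved with the ratio over all genes, from a median log2 ratio of 0.45 in the lowest of 20 bins of GC content to −0.25 in the highest. The 10 genes ranged from 43.9% for Lox to 59.4% for Emilin1. With this trend removed, 8 of the 10 genes were still lower, against 50.0% of 11207 genes, and 4 were at least 1.5-fold lower (Fbn1, Fbln1, Mfap5 and Lox), against 5.81%. Fbn1 was at −1.10 and stayed past 2-fold, and Fbln1 was at −0.90. The 3 genes with the lowest GC content moved furthest down, Lox to −0.74, Fbln5 to 0.53 and Mfap5 to −0.77, whereas Emilin1 moved up to −0.37 and Ltbp3 to −0.56. Ltbp1 stood at 0.43, and it and Fbln5 were still higher.

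**Figure D5:**
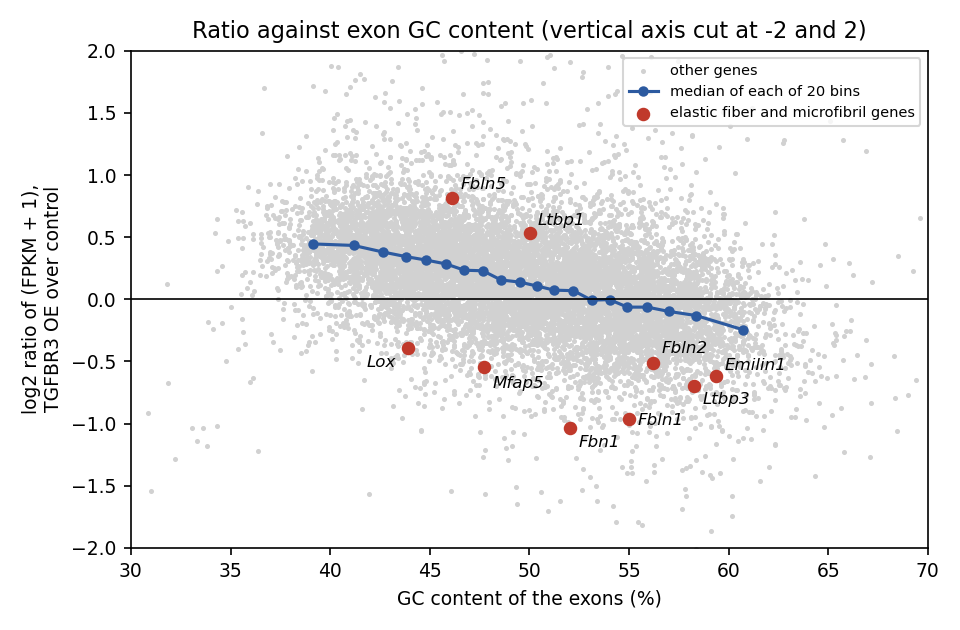
The log2 ratio of (FPKM + 1), the library labeled TGFBR3 OE over the library labeled control, against the GC content of the exons, for expressed genes (gray), the medians of 20 bins (blue) and 9 of the 10 genes (red, without Eln). The axis is limited to −2 to 2. The bin medians run from 0.45 to −0.25, with 7 genes below the line and Fbln5 and Ltbp1 above it.

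Some markers of differentiated cell types were lower beside these genes, and others were not. For comparison, 36.7% of the expressed genes were lower, and 0.58% of the genes above the floor were at least 2-fold lower. Of 6 adipocyte markers, 5 were lower in the library labeled TGFBR3 OE, and Adipoq (−1.07), Cfd (−1.29) and Car3 (−1.15) were at least 2-fold lower, with summed FPKM values of 37.1 and 71.1. Plin1 stood at −0.47 and Fabp4 at −0.14, and Pparg, the main adipogenic transcription factor, was higher at 0.29 (95% CI 0.16 to 0.42). Of 4 tenocyte markers, 3 were lower, among them Thbs4 at −1.62 and Scx at −0.80, and the sums were 31.5 and 94.1, nearly all from Thbs4, with Tnmd at FPKM 0.04 and 0.15 and Mkx higher at 0.11 (95% CI 0.00 to 0.22). Of 6 smooth muscle and pericyte markers, which are cells known to make elastin, 4 were lower, and the sums were 333 and 510. Acta2, a marker of myofibroblasts too, made up most of these sums at −0.63 (FPKM 323 and 499), while Myh11 was at 1.26 and 1.77 and Notch3 was higher at 0.33 (FPKM 6.34 and 4.85). The part of these cells, or of their genes, in the difference of the 10 genes was not tested.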

How the data were processed

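RNA-seq of mouse FAPs was analysed from 2 libraries, 1 per group by the labels. The authors trimmed the reads and mapped them to mm10. Their methods name STAR and FeatureCounts, whereas the submitters' processing notes name cutadapt 1.9, HISAT2 2.2.1 and StringTie 2.1.6, and which made the values is not settled. They deposited the raw count of each gene and the FPKM, rounded to 2 decimals. These FPKM values lay within 1% of count over exon length and a single total, 67895629 and 92452115 reads, for 96.4% of 11458 and 97.4% of 10861 genes, so a change of that total shifts all genes of a library alike. The paper's methods state no test for 1 library per group, and none was run. Log2 ratios were computed over the whole table with a pseudocount of 1, in Python 3.11.15 with scipy 1.17.1. The ratio of counts without a pseudocount, its interval and the trend removal were tested on simulated counts. These were independent draws with counting error only, set against the sums of the counts. The test therefore covers neither spread between cultures nor duplicate reads. The (FPKM + 1) ratio and its interval were not tested in this way. The labels do not say if molecular identifiers were used, so reads may not be independent molecules. The paper names a stranded library kit, but neither source says if counting used strand. Coordinates, exon length and GC content came from GENCODE release M21 on mm10, and promoters from RefSeq. At most 2.27% of a gene's 31-base words, in Emilin1, occur in transcripts of other genes. The alternatives were a pseudocount of 0.1 or none, restriction to genes with an FPKM of 1 or more on average, centring on the median gene, a common sum without the 50 highest genes, CPM, TMM scaling in edgeR 4.0.16, removal of the trends over GC content and length in 20 bins, and a threshold of 1.5-fold. All 10 genes, Tgfbr3, and the 3 largest and 3 smallest ratios of each other list (besides any gene at least 2-fold changed) were to be named, and other genes were named after their values were seen. The members and lists were chosen with earlier results of these data known.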

Additional observations from a re-analysis of the deposited data

How the results depend on the processing

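Each of the 10 genes kept the sign of its log2 ratio under every alternative that gave it a value, from −1.37 to −1.03 for Fbn1 and from 0.53 to 0.84 for Fbln5. Ltbp1 ranged from 0.28 with the length trend removed to 0.68 without a pseudocount. The median log2 ratio of the 10 genes (main value −0.53) was −0.59 with a pseudocount of 0.1 and −0.59 without one, −0.65 centred, −0.55 with a common sum without the 50 highest genes, −0.61 from CPM, −0.81 with TMM scaling, −0.51 with the GC trend removed and −0.69 with the length trend removed. These settings also shifted the median expressed gene, TMM scaling by −0.19, removal of the GC or the length trend by −0.14 and centring by −0.13, and the values hold that shift. The number of the 10 genes at least 2-fold lower was 1, and it was 2 with a pseudocount of 0.1, centred, from CPM, with TMM scaling or with the length trend removed, 3 without a pseudocount, and 4 at 1.5-fold, where 1 gene was higher. Fbn1 was among them each time. Fbln1 was among them where the count was 2 or more, and not with the GC trend removed (−0.90), with the common sum (−0.98) or over expressed genes (−0.96), where the count stayed 1. The median of the other elastic fiber genes (main value −0.27) was −0.42 without a pseudocount, −0.39 over expressed genes, −0.40 centred, −0.35 from CPM, −0.56 with TMM scaling and −0.40 with the length trend removed. In the main setting 0 of these genes were 2-fold changed. With a pseudocount of 0.1, without one, from CPM or at 1.5-fold, 1 was higher. Of the lower ones there was 1 with a pseudocount of 0.1 or the length trend removed, 2 without a pseudocount, 4 with TMM scaling and 5 at 1.5-fold. Apart from the added 1, the filter and the scaling, the cause of these moves was not tested. In the main setting, 0.58% of the genes above the floor were 2-fold lower and 1.73% were 2-fold higher. By the plain FPKM ratio 5.56% were 2-fold lower, and over expressed genes 1.03%. At 1.5-fold, 4.91% of the expressed genes were lower and 13.3% were higher. For the other settings the share of all genes at 2-fold was not determined, so those counts have no share beside them. No paired analysis was possible because each group has 1 library, and for the same reason no library could be left out. Depth limits Eln, with 21 and 127 counts, more than the other genes, which had at least 1520.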
